A study of Caenorhabditis elegans with 2 samples.

Results

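The microRNA genes of Caenorhabditis elegans outside the heterochronic pathway were examined for ChIP-seq peaks of eGFP-tagged NHR-12, a nuclear hormone receptor. ChIP-seq recovers and sequences the DNA that a protein occupies. The genes were all those of biotype miRNA in the Ensembl release 115 annotation of WBcel235, the assembly that is also called ce11, except the 5 heterochronic genes let-7, lin-4, mir-48, mir-84 and mir-241. This left 256 of 261 microRNA genes among 46926 annotated genes. Of these, 96 lay in an intron of a protein-coding gene on either strand, 149 were intergenic and 11 overlapped an exon. The data were 2 biological replicates of 1 group, whole L2 larvae of strain OP318, which carry unc-119(ed3) III and the integrated transgene wgIs318 with tagged nhr-12. Both sexes were pooled, and the labels give a fragment range of 150 to 350 bp. No second condition was part of the design, and larvae without the tagged protein were not analysed here, so no test between groups was made and specificity for NHR-12 was not tested. The whole animal was used, so binding in few cells and weak binding in many cells cannot be told apart.

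Peaks were deposited as lists, each peak with a summit, the position of highest enrichment, and a signal value given by the authors' peak caller against a control. A relaxed list, which admits weak peaks, held 29431 peaks for the pooled replicates and 30000 for each replicate alone. A thresholded list held the 228 pooled peaks that passed a limit on IDR, the irreproducible discovery rate. These were the 228 peaks of highest signal in the pooled list, 199 of them nuclear, and single ones ranked low in 1 replicate. Signal values are on a different scale in each list, with a median of 3.70 in replicate 1 and 10.7 in replicate 2, so peaks were also given ranks within their list, with 1 the highest. For each microRNA gene the summit of highest signal within 1000 bp of the 5′ end was taken. The 5′ end is that of the annotated gene, which is usually the hairpin and not the start of the primary transcript. An annotated primary transcript was held by 6 of the 256 genes. Read depth is unknown, as the lists hold no counts.

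MicroRNAs are short RNAs cut from hairpin precursors by the Drosha and Dicer nucleases and loaded into Argonaute proteins, which they guide to target messenger RNAs. Pairing of the seed, bases 2 to 8 of the mature RNA, decides most of the target choice, so microRNAs with the same seed are grouped as a family. Hairpins in introns can be made from the host gene's transcript or from a promoter of their own, and hairpins close together are often made from 1 transcript. In C. elegans larvae microRNAs are known for roles in developmental timing, stress resistance, ageing and the identity of neurons.

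Mature sequences are shown for the genes on which the results turn, 5′ to 3′ with the seed in capitals, read from WBcel235 at the mature microRNA positions of the RefSeq annotation. RefSeq gave 448 mature sequences of 17 to 26 bases for 255 of the 256 genes. The 6 members of the mir-51 family share the seed ACCCGUA, come from 3 loci on chromosomes IV and X, and were the only family of 3 or more genes in which every gene had a summit of both replicates. They are shown to let the shared seed and the differing tails be compared. The sequences are from the 5′ arm for mir-51, mir-52 and mir-53 and from the 3′ arm for mir-54, mir-55 and mir-56.
mir-51: uACCCGUAgcuccuauccauguu
mir-52: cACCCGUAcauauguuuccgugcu
mir-53: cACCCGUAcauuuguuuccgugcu
mir-54: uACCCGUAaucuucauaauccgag
mir-55: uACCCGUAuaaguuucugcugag
mir-56: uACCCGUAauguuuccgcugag
The next sequences belong to mir-90 (3′ arm) and mir-5549 (3′ and 5′ arm), whose summits were among the highest. They are followed by mir-34 (5′ arm) and by mir-58.1, mir-58.2, mir-80 and mir-35 (all 3′ arm), whose summits were weaker or differed between the replicates.
mir-90: uGAUAUGUuguuugaaugccccu
mir-5549, 3′ arm: uCAUGUUGguuuuuuguuggu
mir-5549, 5′ arm: cUUGUGAAauuaacgugagu
mir-34: aGGCAGUGugguuagcugguug
mir-58.1: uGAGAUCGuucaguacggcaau
mir-58.2: aGAGAUCAaccauugagauccaa
mir-80: uGAGAUCAuuaguugaaagccga
mir-35: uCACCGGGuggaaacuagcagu

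A thresholded summit lay within 1000 bp of 4 of the 256 microRNA genes (1.56%, exact 95% interval 0.427% to 3.95%), against 0.695% of 46634 other nuclear genes and 0.926% of 19973 other protein-coding genes. They were mir-354, mir-5549, mir-1824 and mir-4929. Intervals here are Clopper-Pearson intervals that cover sampling of genes only, and they are too narrow where clustered genes share a summit. Both backgrounds are given because 19654 of the 46634 other nuclear genes lie on chromosome IV, where 74.0% of them had a pooled relaxed summit.

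The gene mir-354 (WBGene00014612, I:14468382-14468491, minus strand) overlaps an exon of rps-20, which encodes a protein of the small ribosomal subunit. Its summit had a signal of 70.6 and rank 67 in the pooled list, 19.2 and rank 99 in replicate 1 and 50.6 and rank 61 in replicate 2, and lay 861 bp upstream of its 5′ end. This was the highest rank of any microRNA gene in the pooled list, but the summit was nearer to ekl-4 (I:14469500-14476894, plus strand), 148 bp upstream of that gene's 5′ end. It lay between the 5′ ends of ekl-4 and of rps-20 itself (I:14468332-14469103, minus strand), and so upstream of both. At the intergenic mir-5549 (WBGene00219220, III:6971976-6972085, minus strand) the signal was 70.1 at rank 70 in the pooled list, 17.5 at rank 133 in replicate 1 and 48.9 at rank 62 in replicate 2. The pooled summit lay 3 bp inside the annotated gene, and also 171 bp upstream of rfc-4 (III:6972253-6973717, plus strand), a subunit of the clamp loader of DNA replication. Both replicates placed it within 7 bp of the 5′ end of mir-5549.

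The other thresholded summits were weaker. At mir-1824 (WBGene00077718, I:13513955-13514047), which lies on the strand opposite to its host Y87G2A.18, the pooled signal was 42.5 at rank 159, with rank 560 in replicate 1 and rank 214 in replicate 2. Its summit lay 432 bp downstream of the microRNA 5′ end and 97 bp upstream of the 5′ end of the host. At mir-4929 (WBGene00219226, II:13461755-13461864), in an intron of E01G4.3, the pooled signal was 38.8 at rank 202, with rank 496 in replicate 1 and rank 251 in replicate 2. That summit lay 899 bp downstream, close to the limit of 1000 bp, and 323 bp upstream of pqn-27 (II:13448835-13460642). All 4 thresholded summits lay within 323 bp upstream of the 5′ end of a protein-coding gene. The nearest gene outside the limit was mir-71, with thresholded summits 1226 bp upstream (42.9, rank 156) and 1662 bp upstream (45.4, rank 136). Within 2000 bp there were 8 microRNA genes, the further ones being mir-71, mir-2221, mir-243 and mir-2216.

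Summits ranked high in both replicates were listed at more microRNA genes than thresholded summits were. In the upper 1000 ranks of both replicates a summit was found at 11 microRNA genes (4.30%, exact 95% interval 2.16% to 7.56%), against 0.753% of other nuclear genes and 0.961% of other protein-coding genes. These 11 genes lay in 9 loci and rested on 8 distinct pairs of summits. The limit of 1000 ranks was chosen after the data were seen. In the upper 5000 ranks there were 22 genes (8.59%, exact 95% interval 5.46% to 12.7%), against 3.74% and 3.41%. In the upper 10000 there were 31 (12.1%, exact 95% interval 8.38% to 16.7%), against 9.77% and 6.95%, and with no limit on rank there were 86 (33.6%), against 36.1% and 27.4%. The share of microRNA genes thus stood above that of other genes at high ranks and between both backgrounds over the whole lists.

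**Figure D1:**
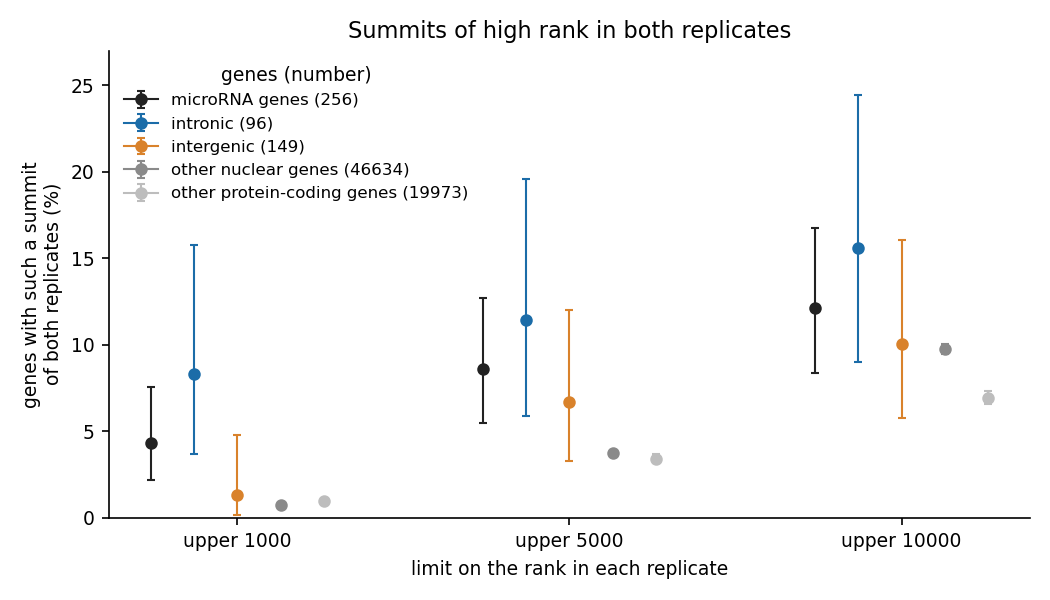
Share of genes with a summit of both replicates within 1000 bp of the 5′ end (%, y axis) when both summits must lie in the upper 1000, 5000 or 10000 ranks (x axis), for all microRNA genes, intronic and intergenic microRNA genes, and other nuclear and protein-coding genes; points are shares and bars exact 95% intervals. At 1000 ranks the microRNA genes stand at 4.30% and other nuclear genes at 0.753%, with intronic genes at 8.33% and intergenic genes at 1.34%.

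Besides the 4 genes with thresholded summits, the upper 1000 held mir-54, mir-55, mir-56, F09A5.15, mir-90, mir-2 and mir-52. The first 4 lie in 1 intron of F09A5.3 (X:13141601-13152838) and share their summits. The signal there was 35.8 at rank 262 in the pooled list, 22.6 at rank 67 in replicate 1 and 31.8 at rank 158 in replicate 2. The pooled summit (peak X:13145481-13145800) lay 547 bp upstream of mir-54 (WBGene00003282, X:13144996-13145094, minus strand), the first gene of the cluster, and 4040 bp from the nearest protein-coding 5′ end, that of the host. The gene F09A5.15, which Ensembl names cel-mir-55b, runs on the other strand across mir-55 and its 5′ end lay 811 bp from the same summit, which was on its downstream side. The annotated 5′ end nearest to this summit was that of F09A5.11, an ncRNA gene, 370 bp away.

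At mir-90 (WBGene00003318, III:8873987-8874084, minus strand), in an intron of K01F9.2, the pooled signal was 34.5 at rank 286, with 12.5 at rank 332 in replicate 1 and 21.6 at rank 738 in replicate 2. Its summit (peak III:8874151-8874470) was 227 bp upstream, and no other annotated 5′ end was nearer. At mir-2 (WBGene00003261, I:9372768-9372865), in an intron of ppfr-1, a regulatory subunit of protein phosphatase 4, the pooled signal was 34.8 at rank 282, with rank 808 in replicate 1 and rank 366 in replicate 2, 400 bp upstream. The ncRNA gene F16A11.5 had the nearer 5′ end, 106 bp from that summit. At the intergenic mir-52 (WBGene00003280, IV:14034008-14034107, plus strand) the pooled signal was 26.7 at rank 681, with 15.3 at rank 180 in replicate 1 and 20.8 at rank 905 in replicate 2, 49 bp upstream. These 7 genes had their nearest protein-coding 5′ end between 2817 and 14198 bp from the pooled summit, unlike the 4 thresholded ones. The summits at the F09A5.3 cluster, mir-2 and mir-90 stood just under 37.2, the lowest signal in the thresholded list.

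**Figure D2:**
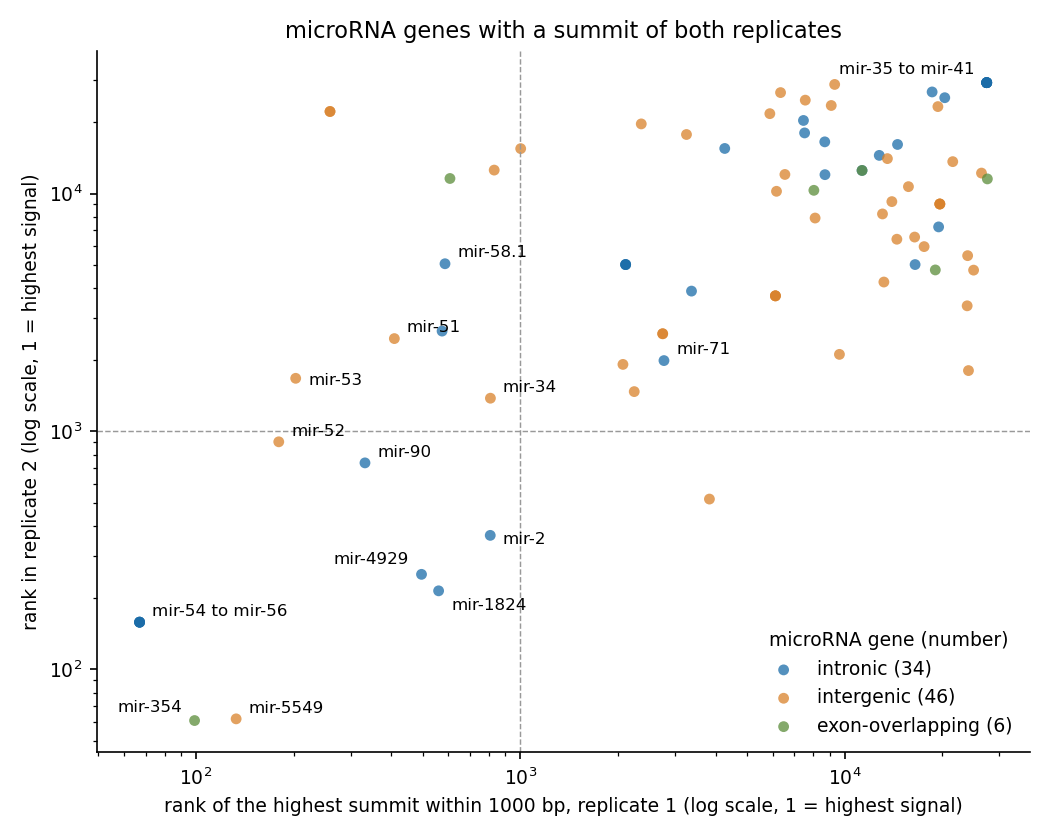
Rank of the highest summit within 1000 bp in replicate 1 (x axis, log scale) and replicate 2 (y axis, log scale) for the 86 microRNA genes with a summit of both replicates; points are genes, coloured by place, and darker points are genes that share summits. The 11 genes in the lower left, bounded by dashed lines at rank 1000, include mir-354, mir-5549 and the mir-54 to mir-56 cluster, while mir-35 to mir-41 lie at ranks 27433 and 29239.

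The mir-51 family, the relatives of vertebrate miR-99 and miR-100, are broadly expressed and are needed together for embryonic development and attachment of the pharynx. All 6 genes had summits of both replicates in the upper 5000 ranks, and 4 had them in the upper 1000. Over all 256 microRNA genes the shares were 8.59% and 4.30%. These shares count the family's own genes, and the family was picked out by its summits, so this is no independent comparison. Of the 4 genes in the upper 1000, mir-54, mir-55 and mir-56 share their summits, at rank 67 in replicate 1 and rank 158 in replicate 2. These 3 genes are thus not separate cases. At mir-53 (WBGene00003281, IV:11027593-11027691) the pooled rank was 548, with rank 203 in replicate 1 and rank 1673 in replicate 2. At its neighbour mir-51 (WBGene00003279, IV:11026013-11026112) the pooled rank was 5842, with rank 409 in replicate 1 and rank 2457 in replicate 2. The replicates placed the summits of mir-51 on different sides of the gene, 222 bp upstream in replicate 1 and 180 bp downstream in replicate 2.

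Other families were less uniform. There were 15 seed families of 3 or more genes, holding 62 genes, and 6 of the families had no gene with a summit of both replicates. Over all 256 microRNA genes the share with such summits was 33.6%. Families were made from the seeds of both arms, so they can overlap. The families AGAGUGG and UGACCCU, both among the 6, share mir-2217.3, mir-2217.4 and mir-2217.5. The largest, the mir-35 family with seed CACCGGG, is needed in the embryo and for fertility and has 8 genes in 2 clusters. The cluster mir-35 to mir-41 (first gene II:11537608-11537704), inside Y62F5A.9 on its opposite strand, had no pooled summit, and its shared summits were among the lowest of each replicate list, at rank 27433 in replicate 1 and rank 29239 in replicate 2. The remaining gene, mir-42, had pooled rank 24317, rank 22290 in replicate 1 and no summit in replicate 2.

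Genes of the bantam-like group, which affect body size and dauer formation, were split. The gene mir-58.1 (WBGene00003286, IV:3233254-3233350), in an intron of phkb-1, makes one of the most abundant microRNAs of the worm and had a pooled signal of 29.2 at rank 506, with rank 586 in replicate 1 but rank 5069 in replicate 2. Its seed GAGAUCG differs in its last base from GAGAUCA, the seed of 6 genes, among them mir-58.2, mir-80, mir-81 and mir-82. The gene mir-58.2 had pooled rank 5521, with rank 2749 in replicate 1 and rank 2575 in replicate 2. Y73B6A.17, of the same seed, shares these summits, so the 2 genes are not separate cases. The gene mir-2209.1, also of that seed, had no summit in any list. The gene mir-80 had a summit in replicate 1 alone (8.36, rank 1213), as did mir-81 at rank 28928. The gene mir-82 had pooled rank 13828 and rank 15616 in replicate 2, with none in replicate 1.

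Of the AUGACAC family, 4 genes in an intron of gcn-1 (mir-229, mir-64, mir-65 and mir-66) had summits of both replicates, with pooled ranks of 3867 and 6169, and shared rank 5029 in replicate 2. The fifth gene, mir-63, on X, had pooled rank 18591 and none in replicate 1. The seed GGCAGUG joins mir-34, mir-1824 and mir-4933. The gene mir-34 (WBGene00003262, X:2969752-2969848), which acts in stress responses, had pooled rank 4839, rank 809 in replicate 1 and rank 1380 in replicate 2, while mir-4933 had no summit in any list.

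**Figure D3:**
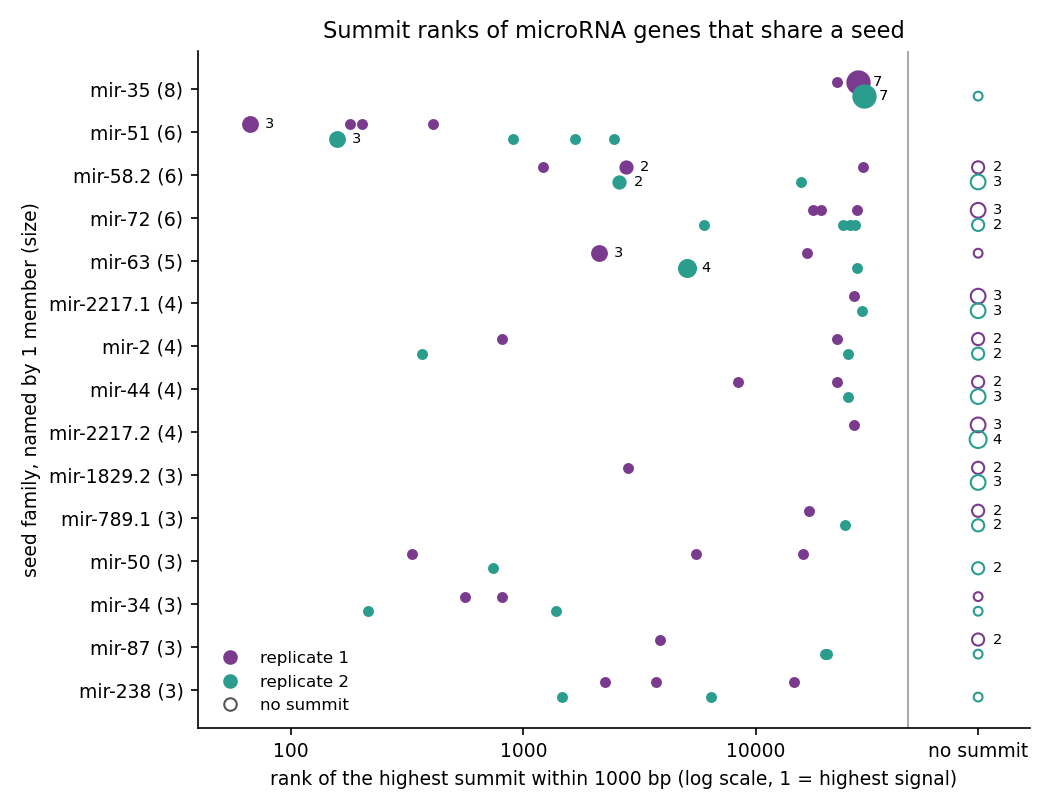
Rank of the highest summit within 1000 bp (x axis, log scale) in replicate 1 and replicate 2 for the 15 seed families of 3 or more microRNA genes (y axis, size in brackets); circle size and the number beside it show genes at the same rank, and open circles genes without a summit. All 6 genes of the mir-51 family lie at rank 2457 or better in both replicates, and 7 of 8 genes of the mir-35 family lie at ranks 27433 and 29239. A gene can appear in more than 1 family.

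Among genes with known roles in stress and lifespan, mir-71 (WBGene00003299, I:9379927-9380020), which extends lifespan, had a pooled signal of 21.1 at rank 2015, with rank 2774 in replicate 1 and rank 1986 in replicate 2. The gene mir-239.1 (WBGene00003332, X:11792445-11792542), also linked to stress and lifespan, had 26.2 at rank 738, with rank 2246 in replicate 1 and rank 1471 in replicate 2, all within 176 bp downstream of its 5′ end. The gene mir-246 had a summit in replicate 1 alone, at rank 5277, and mir-228, expressed in glia, likewise at rank 11858. Among the named genes from the upper ranks, mir-5547 had pooled rank 2549, rank 2073 in replicate 1 and rank 1914 in replicate 2, but its replicate 1 summit lay 790 bp upstream and its replicate 2 summit 429 bp downstream.

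For 8 further well-studied genes no list held a summit in its upper 5000 ranks. The gene mir-1, the conserved muscle microRNA, had pooled rank 6018, with rank 6547 in replicate 1 and rank 12026 in replicate 2, on opposite sides of the gene. For mir-237, a relative of lin-4, the pooled rank was 13592, with rank 7566 in replicate 1 and rank 24683 in replicate 2. For mir-273, which was proposed to act in the left-right asymmetry of taste neurons, the pooled rank was 20461, with rank 20370 in replicate 1 and rank 25273 in replicate 2. The gene lsy-6, which sets that asymmetry, had a summit in replicate 1 alone at rank 15559, and mir-62 likewise at rank 5497. No summit was listed in any of the lists for mir-124, the neuronal microRNA, for mir-61, which acts in vulval fate, or for mir-235, which holds progenitor cells quiescent in starved larvae. An unlisted summit says only that no peak there entered lists cut at about 30000 peaks.

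Over the whole relaxed lists, microRNA genes were near the background. In the pooled list 125 genes had a summit (48.8%, exact 95% interval 42.6% to 55.1%), on 105 distinct summits, against 58.1% of other nuclear genes and 46.1% of other protein-coding genes. In replicate 1 there were 141 (55.1%), against 54.4% and 50.1%, and in replicate 2 there were 129 (50.4%), against 58.4% and 46.6%. All 3 relaxed lists had a summit at 76 genes, and none had one at 70 genes (27.3%), against 21.6% and 28.9%. By chromosome, 20 of 27 genes on III had a pooled summit (74.1%, exact 95% interval 53.7% to 88.9%), against 46.6% of other genes there. Some of these 20 genes share a summit, such as mir-229, mir-64 and mir-65 at rank 3867, so they are not 20 separate summits. On II the count was 16 of 48 (33.3%, 20.4% to 48.4%), against 39.3%, and on X 40 of 72 (55.6%, 43.4% to 67.3%), against 54.6%. On I it was 16 of 33 (48.5%, 30.8% to 66.5%), against 46.0%, and on V 12 of 26 (46.2%, 26.6% to 66.6%), against 45.3%. On IV it was 21 of 50 (42.0%, 28.2% to 56.8%), against 74.0%. The other genes on IV, 19654 of 46634, were not split by biotype, so the gap there cannot be read as particular to microRNA genes.

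**Figure D4:**
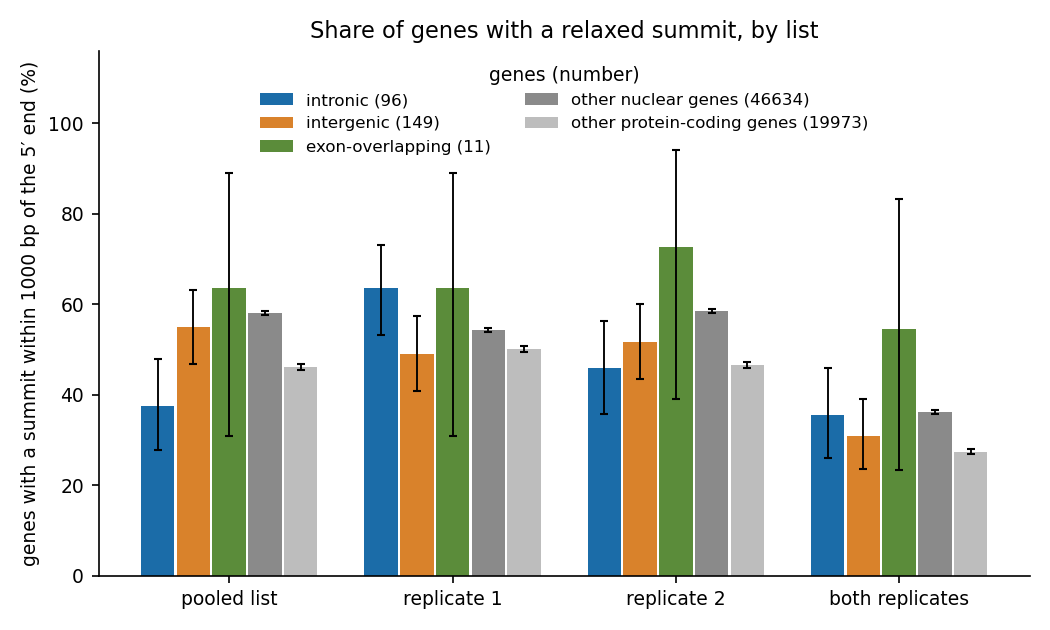
Share of genes with a relaxed summit within 1000 bp of the 5′ end (%, y axis) in the pooled list, in each replicate and in both replicates (x axis), for intronic, intergenic and exon-overlapping microRNA genes and for other nuclear and protein-coding genes; bars are shares and lines exact 95% intervals. Intronic genes stand below intergenic genes in the pooled list (37.5% and 55.0%) and above them in replicate 1 (63.5% and 49.0%).

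Intronic and intergenic microRNA genes were compared in each list, and the direction differed between lists. A pooled summit was found at 36 of 96 intronic genes (37.5%, exact 95% interval 27.8% to 48.0%) and 82 of 149 intergenic genes (55.0%, 46.7% to 63.2%), a difference of -17.5 percentage points (Newcombe 95% interval -29.4 to -4.73). It was smaller under most other settings, -8.80 points with hosts of any biotype, -6.84 within 500 bp and -5.20 in the upper 50% of the list. In replicate 1 a summit was found at 61 intronic genes (63.5%, 53.1% to 73.1%) and 73 intergenic genes (49.0%, 40.7% to 57.3%), and in replicate 2 at 44 (45.8%, 35.6% to 56.3%) and 77 (51.7%, 43.4% to 59.9%). Both replicates had one at 34 intronic genes (35.4%) and 46 intergenic genes (30.9%), a difference of 4.54 points (-7.26 to 16.6). Of the 34 intronic genes, 7 were mir-35 to mir-41 on their shared low summits, and with 1 gene per cluster the difference was -4.92 points. Without replicate 1 it was -5.84 and without replicate 2 it was 14.5 points. With hosts on the same strand only it was -2.08 points, and where only the gene nearest to a summit was counted it was -4.65 points. The order of intronic and intergenic genes differed between the replicates.

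In the pooled list the difference was larger on X, where 5 of 18 intronic genes (27.8%) and 35 of 54 intergenic genes (64.8%) had a summit. On the autosomes 31 of 78 (39.7%) and 47 of 95 (49.5%) had one. Of the 5 intronic genes on X, 4 are those that share the F09A5.3 summits. In the upper 1000 ranks of both replicates there were 8 intronic genes (8.33%, exact 95% interval 3.67% to 15.8%) and 2 intergenic genes (1.34%, 0.163% to 4.76%), but 4 of the 8 share the F09A5.3 summits. Counted by distinct summits, there were 5 at intronic and 2 at intergenic genes. In the pooled list alone the difference turned positive at high ranks, 3.24 points in the upper 5000 and 7.73 points in the upper 1000. Of the 11 exon-overlapping genes, 7 had a pooled summit (63.6%, exact 95% interval 30.8% to 89.1%), against 58.1% of other nuclear and 46.1% of other protein-coding genes. Summits of both replicates were found at 6 of the 11 (54.5%, 23.4% to 83.3%), against 36.1% and 27.4%. GC content moved with place: the 2000 bp around the 5′ end had a median of 38.4% GC at intronic and 34.7% at intergenic genes. At the summits themselves, in windows of 300 bp, the medians were 40.3% and 34.0% in replicate 1, 35.3% and 31.7% in the pooled list and 34.2% and 32.2% in replicate 2. The part of GC content in these differences was not tested.

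Few intronic microRNA genes shared a summit with the 5′ end of the host. The 96 intronic genes lie in 78 host genes, with a median distance of 2461.5 bp between the 5′ ends, and 22 of them lie within 1000 bp of the host's 5′ end. Of the 36 intronic genes with a pooled summit, 6 had a pooled summit within 1000 bp of both 5′ ends. Both replicates had a summit at microRNA and host for 15 genes, at the microRNA alone for 19, at the host alone for 20 and at neither for 42. In the hosts, 47 of 78 had a pooled summit (60.3%, exact 95% interval 48.5% to 71.2%) and 30 had one in both replicates (38.5%), against 46.1% and 27.4% of other protein-coding genes. At the 5′ end of F09A5.3 the pooled rank was 6833, with rank 281 in replicate 1 and rank 6565 in replicate 2, lower than at the hairpins in its intron. At the host K01F9.2 the pooled rank was 7797, against rank 286 at mir-90, and phkb-1 had no summit in any list at its own 5′ end. At gcn-1 the order was the other way in the pooled list, with rank 546 at the host and rank 3867 at mir-229. It was so in replicate 2 as well, with rank 341 and rank 5029. In replicate 1 the host had no summit, while mir-229 had rank 16501 and mir-64 rank 2113. Hosts on the strand opposite to the hairpin held 30 of the 96 genes, and 24 of these 30 had a replicate 1 summit (80.0%), against 37 of 66 with the host on the same strand (56.1%). In replicate 2 the counts were 15 of 30 and 29 of 66 (43.9%), and in the pooled list the order was the other way, with 9 of 30 (30.0%) and 27 of 66 (40.9%). The 30 include mir-35 to mir-41, which share a replicate 1 summit at rank 27433, and mir-54 to mir-56, which share one at rank 67. The 24 genes are thus not 24 separate summits.

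Summits lay on both sides of the 5′ end. Among microRNA genes with a pooled summit, 62 of 125 (49.6%) had it upstream, against 55.8% of other nuclear genes and 63.5% of other protein-coding genes. The median distance, negative upstream, was -70.5 bp for the 36 intronic and -13.5 bp for the 82 intergenic genes. The microRNA gene itself had the nearest 5′ end to its pooled summit in 65 of 125 cases, a protein-coding gene did in 18, an ncRNA gene in 16 and another microRNA gene in 14. A protein-coding 5′ end lay within 1000 bp of the summit for 33 of 125 (26.4%), against 35.7% of 29296 other nuclear pooled summits.

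**Figure D5:**
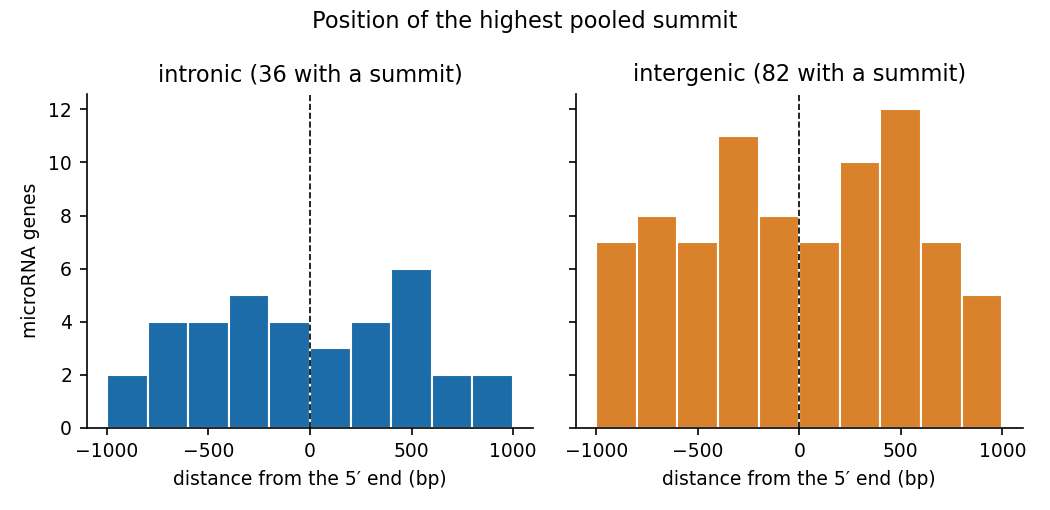
Distance of the highest pooled summit from the annotated 5′ end (bp, x axis, negative upstream) in intervals of 200 bp, as numbers of genes (y axis), for intronic (left) and intergenic (right) microRNA genes. Summits lie on both sides of the 5′ end, with 19 of 36 upstream at intronic genes and 41 of 82 at intergenic genes.

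The ranks of the replicates were set against each other across genes. Across the 86 microRNA genes with a summit of both replicates, Spearman's rho of the ranks was 0.57, and across 68 distinct pairs of summits it was 0.42, against 0.15 across 16844 other genes. It was 0.80 across 23 distinct pairs at intronic genes and 0.20 across 40 at intergenic genes. These are descriptions across genes of the same 2 libraries, and genes are not independent replicates. The highest summits of the replicates were a median of 520 bp apart and within 200 bp for 20 of 86 genes (23.3%), against 419 bp and 33.7% at other nuclear genes. Across the 68 distinct pairs the median was 427.5 bp and 29.4% were within 200 bp. When any pair of summits was counted, 39 of 256 genes (15.2%, exact 95% interval 11.1% to 20.2%) had summits of both replicates within 200 bp of each other, against 19% of other nuclear genes and 14.3% of other protein-coding genes.

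Windows of 300 bp upstream of the 5′ end and around summits were searched on both strands for 5 motifs, none of which contains another. AGGTCA is the half-site of many nuclear receptors. CTCCGCCC has been described upstream of nematode microRNA genes. CACGTG is an E-box and TGATAA holds the core site of GATA factors. GAGAGA is a GA repeat. In the 300 bp upstream of the 5′ end, AGGTCA was found at 5.47% of microRNA genes, against 7.22% of other genes and 8.48% of other protein-coding genes. In the same order the shares were 24.6%, 17.03% and 21.6% for GAGAGA. They were 4.30%, 4.24% and 5.74% for CACGTG and 25.8%, 29.3% and 30.7% for TGATAA. CTCCGCCC was found there at 17 of 256 microRNA genes (6.64%), against 1.56% of other genes and 2.51% of other protein-coding genes. GC content was higher there as well, with a median of 38.3% against 28.3% and 33.3%, and its part was not tested. Of these 17 genes, 6 had a pooled summit (35.3%) and 3 had summits of both replicates (17.6%), against 49.8% and 34.7% of the microRNA genes without it. The 3 were mir-90, mir-35 and mir-36. The last 2 share 1 site and 1 pair of summits, at rank 27433 in replicate 1 and rank 29239 in replicate 2. The genes mir-247 and mir-797 also share 1 site, and 1 pooled summit at rank 28465. Among the 17, only mir-90 was in the upper 1000 ranks of both replicates, with the motif on its own strand starting 145 bases before the 5′ end. The gene mir-80 also has it, 166 bases before the 5′ end. Both sites are printed with 10 bases on each side and the motif in capitals, from WBcel235, minus strand, at III:8874212-8874239 for mir-90 and III:8865516-8865543 for mir-80.
mir-90 site: ttcccttagtCTCCGCCCtttttcctcc
mir-80 site: caagtcacccCTCCGCCCcaccgactgt
At the 105 pooled summits of microRNA genes, AGGTCA was present in 8.57%, against 5.93% of 29296 other pooled summits, and GAGAGA in 24.8% against 13.1%. For CTCCGCCC the shares were 2.86% and 0.963%, for CACGTG 0.952% and 3.35% and for TGATAA 27.6% and 28.9%. The 8 pooled summits of the 11 highest genes held GAGAGA in 4 cases and AGGTCA in none, while other pooled summits in the upper 1000 held them in 30.9% and 5.84%. They held CTCCGCCC in 2 of 8 cases (25.0%), against 2.71% of those other summits. The GAGAGA matches nearest to the summits of mir-5549 (III:6972060-6972085), mir-4929 (II:13460935-13460960) and mir-52 (IV:14033888-14033913) are shown, all on the minus strand, to let their flanks be compared.
mir-5549 summit: acgagaggggGAGAGAtttttttggg
mir-4929 summit: gtgttttttaGAGAGAaaagtgtcac
mir-52 summit: aaaggagaacGAGAGAaatggggcca

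The genes that make microRNAs and carry out their silencing were taken from a list of 20, of which 19 were matched by symbol. A thresholded summit lay within 1000 bp of 2 of the 19, nhl-2 and vig-1, a pooled summit of 10 and summits of both replicates of 8, against 0.926%, 46.1% and 27.4% of other protein-coding genes. At nhl-2 (III:4893658-4899085), a TRIM-NHL protein that enhances silencing by some microRNAs, the pooled signal was 64.8 at rank 76, with rank 37 in replicate 1 and rank 124 in replicate 2. This summit lay 869 bp upstream of nhl-2 and 4 bp upstream of F26F4.14. At vig-1, a component of the silencing complex, the pooled signal was 38.1 at rank 216, with rank 293 in replicate 2 but rank 14219 in replicate 1, and the 5′ end nearest to the pooled summit was that of 21ur-13751, 132 bp away. Of the Argonautes, alg-5 had pooled rank 704, with rank 1128 in replicate 1 and rank 2641 in replicate 2. That pooled summit lay 803 bp upstream of alg-5 and 133 bp from the 5′ end of the histone gene his-68. The genes alg-1 and alg-2, the main microRNA Argonautes, had pooled ranks of 23437 and 26225 and no summit in replicate 1. The GW182 protein gene ain-1 had pooled rank 390, with rank 145 in replicate 1 and rank 3435 in replicate 2. For the nucleases, drsh-1 (Drosha) had pooled rank 4347, with rank 2049 in replicate 1 but rank 13956 in replicate 2, and dcr-1 (Dicer), like paxt-1 and pab-1, had no summit in any list. The gene pash-1 had rank 4674 in replicate 1 and rank 24724 in replicate 2, but no pooled summit.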

How the data were processed

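ChIP-seq of tagged NHR-12 was measured in 2 replicate samples of L2 larvae. The authors deposited relaxed peak lists per replicate and pooled, and a list past an IDR limit, called against a control per the file headers and notes. The signal value is the authors' own and served here to rank, filter and describe peaks within 1 list. For caller, aligner and IDR limit, nothing was given in the sources used here. Lists on ce11 were used as deposited, with positions counted from 1, and those on ce10 were not used. MicroRNA genes were matched to RefSeq symbols by WormBase identifier (256 of 256). Ranks include mitochondrial peaks. Clusters were genes on 1 strand with 5′ ends within 2000 bp of the next. Counts were made in Python 3.11.15 with SciPy 1.17.1, with exact and Newcombe 95% intervals and no test, since there was 1 group, and the matching was tested on simulated data. The genes and lists were chosen with earlier results of these data known. Genes were named if they had a thresholded summit, were among the 15 best by the worse of both replicate ranks with a summit in all 3 relaxed lists, or belonged to a list of 20 well-studied genes. Further genes were named with their values in view. The alternatives were other distances, upstream summits, nearest gene, interval overlap, 1 gene per cluster, upper ranks, single replicates and other host definitions.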

Additional observations from a re-analysis of the deposited data

How the results depend on the processing

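The counts followed the distance and the rank limit, as the construction of these alternatives sets. Within 500 bp, 2 genes had a thresholded, 76 a pooled and 38 a summit of both replicates, with 26.0% of intronic and 32.9% of intergenic genes in the pooled list and 17.7% and 13.4% in both replicates. Within 2000 bp the counts were 8, 183 and 153, with 65.6% and 75.8%, and 65.6% and 56.4%. With upstream summits alone they were 1, 81 and 36, with 34.2% of intergenic genes in the pooled list, and 17.7% of intronic and 12.1% of intergenic genes in both replicates. With the nearest gene alone they were 1, 75 and 36, with 24.0% and 32.9%, and 11.5% and 16.1%, a difference of -4.65 points. In the upper 50% of each list they were 2, 74 and 45, with 25.0% and 30.2%, and 18.8% and 15.4%. In the upper 5000 ranks 38 genes had a pooled summit and 22 summits of both replicates, with 16.7% and 13.4% (difference 3.24 points), and 11.5% and 6.71%. Leaving out 1 replicate gave 129 to 141 genes in place of 86, 45.8% to 63.5% of intronic and 49.0% to 51.7% of intergenic genes, and a difference of -5.84 to 14.5 points. The difference for both replicates also turned negative with 1 gene per cluster (-4.92 points) and with hosts on the same strand (-2.08 points), and the cause was not tested.

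Added after the data were seen, the upper 1000 ranks gave 15 pooled genes and 11 in both replicates, with 10.4% of intronic and 2.68% of intergenic genes (difference 7.73 points), and 8.33% and 1.34%. Replicate summits within 200 bp of each other left 39 genes, 18.8% and 12.1%. On X alone the pooled shares were 27.8% and 64.8% (difference -37.0 points), and in both replicates 22.2% of intronic genes had a summit (difference -11.1 points). These intronic shares rest on few summits. The 22.2% are the 4 genes that share the F09A5.3 summits, and these are also 4 of the 5 intronic X genes with a pooled summit. The pooled difference of -17.5 points stayed negative but shrank by over 1.5 times with hosts of any biotype (-8.80), within 500 bp (-6.84) and 2000 bp (-10.2), with upstream summits (-6.10), with the nearest gene (-8.93), in the upper 50% (-5.20) and on the autosomes (-9.73). It was -14.1 with hosts on the same strand, -17.4 with 1 gene per cluster and -18.4 with interval overlap. No paired analysis was possible because both samples belong to 1 group. Depth is unknown, clustered genes are not independent, and 4 thresholded genes are too few for a comparison of places.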

Other observations

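Some microRNA genes had a high summit in 1 replicate only, and were picked after their values were seen. The genes mir-8186.1 and mir-8186.2 share a summit at rank 259 in replicate 1 and rank 22117 in replicate 2, with pooled rank 1014. The gene mir-4936 had rank 831 in replicate 1 and rank 12545 in replicate 2, and mir-4938 had rank 607 in replicate 1 and rank 11567 in replicate 2. The gene mir-47 had rank 932 and mir-8192 rank 494 in replicate 1, with no summit in replicate 2. The gene mir-78 had rank 776 in replicate 2 and none in replicate 1. At mir-79, which acts in neuronal migration, the ranks were 3831 in replicate 1 and 520 in replicate 2.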
